A study of Homo sapiens with 9 samples.

Results

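The ERBB receptors and their ligands were followed across RNA-Seq libraries of H1975, a human lung adenocarcinoma cell line that carries a mutated EGFR. The set holds 10 genes, chosen as named members of the family and matched by symbol among the 61544 genes of the count files. They are 4 receptors (EGFR, ERBB2, ERBB3 and ERBB4) and 6 ligands (AREG, EREG, HBEGF, TGFA, BTC and NRG1). All cells received si78, an siRNA against the transcript of GRP78, for 24 h, and then 1 of 3 plasmids for 48 h. The groups, which the labels name Vector, WT and NLS Mut, received pcDNA3, FLAG-tagged GRP78 (F-78(WT)) or the same protein with a mutated nuclear localization signal (F-78(NLS Mut)). Each group had 3 libraries. According to the paper, si78 targets the 3′ untranslated region of the transcript, which the F-78 plasmids lack. Cells without si78 were not analysed here, so each group is a state after si78, and the extent of depletion was not measured. All groups come from 1 cell line. The labels do not say whether libraries of a group came from separate cultures, so the p-values measure the spread between these libraries, which may be technical.

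ERBB receptors are tyrosine kinases of the cell surface that pair with one another when a ligand binds, and they signal through RAS-MAPK and PI3K-AKT. EGFR binds AREG, EREG, HBEGF, TGFA and BTC, whereas NRG1 binds ERBB3 and ERBB4. The ligands are made as membrane-anchored precursors that ADAM proteases release. ERBB2 has no known ligand and ERBB3 has a weak kinase, so each signals mainly as a partner of other receptors. In lung adenocarcinoma, EGFR is a frequent oncogenic driver, and the study asks whether GRP78 in the nucleus regulates its transcription. The counts do not separate the alleles of EGFR.

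The libraries held 17671055 to 27476298 reads on genes. Values are given as CPM, read counts scaled to a common library size with TMM factors, and comparisons as log2 fold changes of the first group named over the second, with a standard error (SE). HSPA5, which encodes GRP78, was at 359, 383 and 391 CPM in the Vector libraries, at 5031, 5814 and 6145 CPM in WT and at 4962, 5156 and 4765 CPM in NLS Mut. These reads include those of the plasmids. HSPA5 was 15.0-fold higher in WT than in Vector and 13.1-fold higher in NLS Mut, and all 6 plasmid libraries lay above all 3 Vector libraries. Between WT and NLS Mut it differed by 0.19 on the log2 scale, with an edgeR adjusted p of 0.079, which fell below the threshold of 0.05 in 9 of 19 alternative analyses, among them those without Vector replicate 1 (0.0039), Vector replicate 3 (0.048) or WT replicate 1 (0.0025). Vector replicate 1 differed from the other Vector libraries. Across genes, its log2 ratio to the mean library fell with GC content, whereas those of Vector replicates 2 and 3 rose. Its slope lay within the range of the WT and NLS Mut libraries, and the other Vector slopes lay above that range. Without Vector replicate 1, the genes called between WT and Vector went from 40 higher and 64 lower to 526 higher and 730 lower. The part of GC content in this change was not tested.

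The cells had the markers of an epithelial line. The 10 epithelial markers, among them EPCAM and several keratins, summed to 4884 to 5745 CPM over all libraries, and none was at 0. The lung lineage factor NKX2-1 was at 21.5 to 31.6 CPM, while the surfactant gene SFTPC stayed at or below 0.222 CPM. Lists of leukocyte, endothelial and fibroblast markers, with 5 genes each, summed to at most 10.7, 8.82 and 11.8 CPM in any library. CD3E, CD68 and DCN, listed as markers of T cells, macrophages and fibroblasts, had no read in any library. Reads that fall on more than 1 gene were not counted, and whether this affected these markers was not tested. CD14 (4.75 to 9.54 CPM) and PDGFRB (6.90 to 11.7 CPM) made up most of the leukocyte and fibroblast sums and were present in every library. PECAM1 (2.96 to 5.74 CPM) and CDH5 (1.42 to 3.44 CPM) were the highest of the endothelial list and were also present in every library. In the fibroblast list, COL3A1 had 1, 12 and 5 reads and LUM 2, 1 and 1 in the WT libraries, and neither had a read in the other groups. PDGFRA had 3 reads, all in WT replicate 3.

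H1975 cells had transcripts of 3 of the 4 receptors and of all 6 ligands. Genes were ordered by level per exonic length (RPKM, CPM per kilobase of exons), averaged over the 9 libraries. EGFR came first with 28.0 ± 1.65 RPKM (SD, n = 9). Its lowest library, at 25.2 RPKM, lay above the highest library of every other member. ERBB2 (16.2 ± 0.933 RPKM) and AREG (14.6 ± 1.91 RPKM) followed, and their ranges overlapped. ERBB3 (8.29 ± 0.722 RPKM) and EREG (7.41 ± 0.771 RPKM) overlapped as well, as did TGFA (5.23 ± 0.495 RPKM) and HBEGF (5.17 ± 0.655 RPKM). NRG1 stood at 3.06 ± 0.312 RPKM and BTC at 2.03 ± 0.378 RPKM, and the ranges of this last pair did not overlap. Among the transcripts of the 6 ligands, AREG therefore had the highest level per length, and its range overlapped that of ERBB2. This order depends on the exonic length by which CPM was divided, and other lengths were not tested. By CPM alone, every EGFR library still lay above all libraries of the other members. The mean CPM of AREG over the 9 libraries was below those of EREG, NRG1 and TGFA, and its CPM range lay below that of ERBB2.

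**Figure D1:**
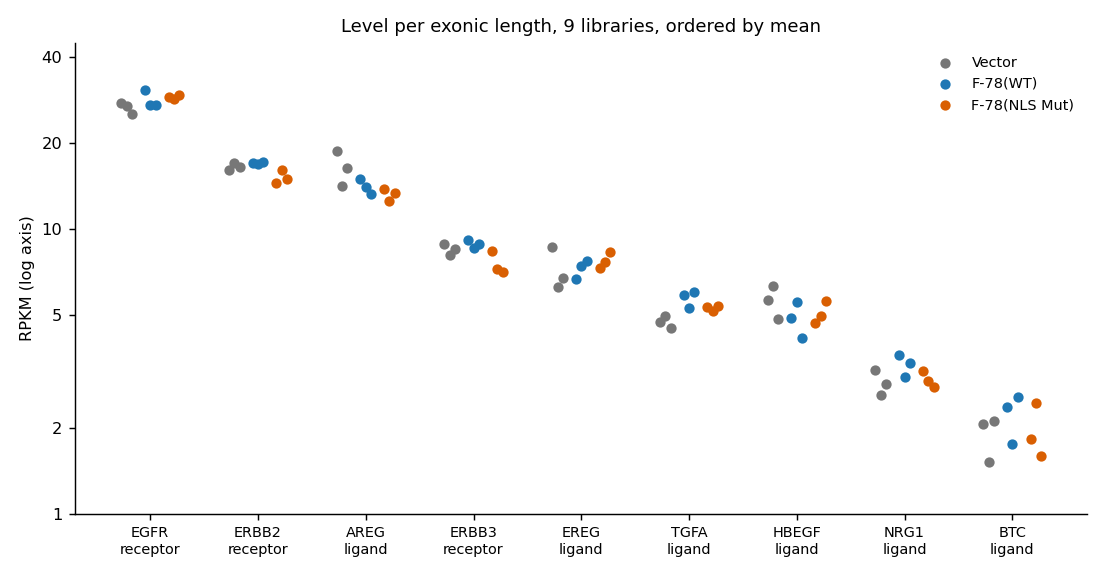
Level per exonic length (RPKM, log axis) of the 9 members with reads, 1 point per library, coloured by plasmid and ordered by the mean over 9 libraries. EGFR lies highest at 25.2 to 30.8 RPKM and BTC lowest at 1.52 to 2.57 RPKM. The groups overlap in every comparison only for EREG, HBEGF, BTC and NRG1.

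ERBB4 was the exception. No read was counted on it in any of the 9 libraries, on either strand. A count of 0 allows up to 3 reads, which corresponds to 0.109 to 0.170 CPM depending on the library. This limit covers counting error only, and reads that fall on more than 1 gene were not counted on any. ERBB4 spans 211375717 to 212538841 of chromosome 2, minus strand (GRCh38, GENCODE 29) and encodes the second receptor of neuregulins. ERBB3, the other neuregulin receptor, was at 63.7 to 82.7 CPM in the same libraries.

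The study's question extends to ID proteins, which bind E proteins and keep them from E-boxes, the DNA motif CANNTG. The promoters of the members were therefore searched for this motif, which reads the same on both strands, in RefSeq windows of 250 bases before to 50 bases after a start (GRCh38.p14). Of 35116 such promoters, 68.7% hold at least 1 match and 31.3% hold none. For the members 10 entries were used, and 7 of these had a match. They belong to 8 members, of which 6 had a match in at least 1 entry. No entry was used for ERBB3 or NRG1. EGFR, which has 2 entries, is shown at the entry that holds the annotated start of the gene. ERBB2 is shown as the partner receptor, and its window had no match. AREG and TGFA are shown as ligands whose libraries separated by group in 1 or more comparisons. Capitals mark CANNTG, and all other bases are in lower case, 5′ to 3′ on the strand of the gene.
EGFR, chr7:55018767-55019066, plus strand: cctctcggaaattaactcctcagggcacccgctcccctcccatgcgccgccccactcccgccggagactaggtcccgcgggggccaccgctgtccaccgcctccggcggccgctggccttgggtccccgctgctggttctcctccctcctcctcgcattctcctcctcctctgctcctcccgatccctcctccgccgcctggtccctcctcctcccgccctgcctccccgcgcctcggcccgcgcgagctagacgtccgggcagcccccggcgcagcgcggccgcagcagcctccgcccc
ERBB2, chr17:39687844-39688143, plus strand: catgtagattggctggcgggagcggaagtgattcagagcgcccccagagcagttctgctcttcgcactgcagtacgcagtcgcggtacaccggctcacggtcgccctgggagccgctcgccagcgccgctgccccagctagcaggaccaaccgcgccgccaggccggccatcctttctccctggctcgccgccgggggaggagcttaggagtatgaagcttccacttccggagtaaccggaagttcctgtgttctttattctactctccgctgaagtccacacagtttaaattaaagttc
AREG, chr4:74444886-74445185, plus strand: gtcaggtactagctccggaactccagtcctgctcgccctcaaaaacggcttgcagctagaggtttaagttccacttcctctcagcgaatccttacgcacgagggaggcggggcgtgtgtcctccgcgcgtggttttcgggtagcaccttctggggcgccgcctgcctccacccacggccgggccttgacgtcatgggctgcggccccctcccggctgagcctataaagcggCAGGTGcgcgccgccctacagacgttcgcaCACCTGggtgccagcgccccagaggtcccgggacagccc
TGFA, chr2:70553397-70553696, minus strand: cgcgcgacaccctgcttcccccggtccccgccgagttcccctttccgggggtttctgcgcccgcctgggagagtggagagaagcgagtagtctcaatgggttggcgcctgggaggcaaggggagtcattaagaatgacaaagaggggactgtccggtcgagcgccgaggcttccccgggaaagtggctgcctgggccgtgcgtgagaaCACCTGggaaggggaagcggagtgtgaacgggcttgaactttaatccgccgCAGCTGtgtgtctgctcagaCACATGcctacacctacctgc
The EGFR window shown had no match, and 75.3% of its bases were G or C. The second EGFR entry, at chr7:55109589-55109888, had 2 matches. The windows of ERBB2 and ERBB4 had none, AREG had 2, EREG had 3, and HBEGF and BTC had 1 each. The ERBB2 window lies at the 5′ end of the annotated gene, which runs to 39730426, and no other start of ERBB2 was searched. TGFA had 3 in the window shown and 1 in its other entry, at chr2:70553777-70554076. That other entry lies nearer the annotated start of TGFA at 70554193, which neither window holds. The TGFA entry shown was thus not chosen by the rule used for EGFR. A match is a run of letters and not a binding site, and the windows without one say nothing of E-boxes elsewhere.

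No member was called in any of the 3 comparisons. Of the 10 genes, 9 were tested, since ERBB4 had no counts. With edgeR's quasi-likelihood test and Benjamini-Hochberg adjustment over all 18653 tested genes, 0 of 9 passed an adjusted p of 0.05 between WT and NLS Mut, where 0.504% of all tested genes did. The count was also 0 of 9 between WT and Vector (0.558% of all genes) and 0 of 9 between NLS Mut and Vector (0.793% of all genes). DESeq2, which gave an adjusted p for 8 members (not BTC), called 0 in each comparison, against 2.70%, 2.58% and 4.11% of the genes it tested. At an unadjusted p under 0.05, edgeR counted 2 members between WT and NLS Mut (11.6% of all genes), 2 between WT and Vector (11.7%) and 3 between NLS Mut and Vector (12.2%). These were ERBB2 and ERBB3 in the first comparison, TGFA and NRG1 in the second, and EGFR, ERBB3 and AREG in the third. The SE ranged from 0.06 for EGFR and ERBB2 to 0.21 for BTC, which had only 79 to 175 reads per library. In bulk RNA, fewer cells with a transcript and less of it per cell cannot be told apart.

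**Figure D2:**
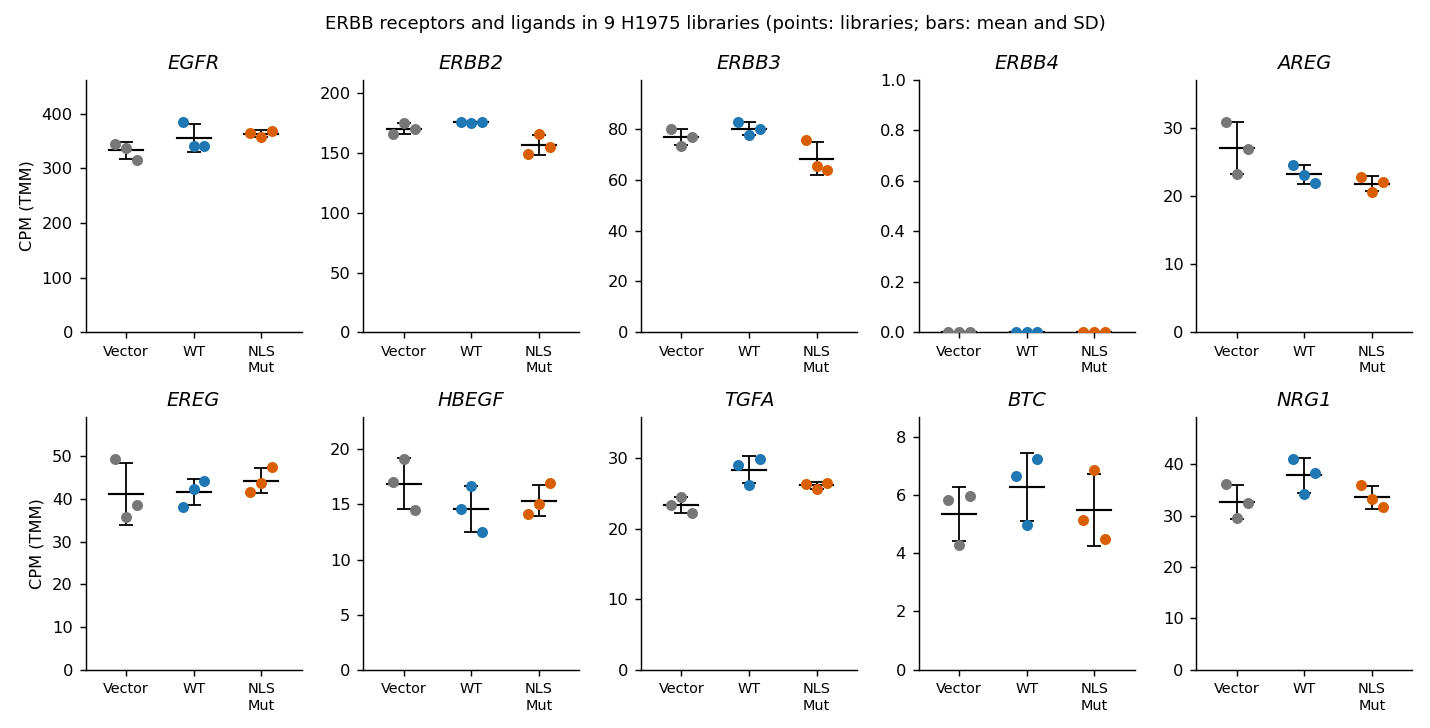
CPM of each of the 10 members in the 9 libraries, with 1 point per library (replicates 1 to 3 from left to right), a line at the group mean and bars of 1 SD; the y axis of each panel starts at 0. The groups overlap in every comparison for EREG, HBEGF, BTC and NRG1. The NLS Mut points of ERBB2 and ERBB3 lie below the WT points. The NLS Mut points lie above the Vector points for EGFR and TGFA and below them for AREG. The WT points of TGFA also lie above its Vector points, and ERBB4 is at 0 throughout.

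EGFR, the receptor that the study's question concerns, lies on the plus strand of chromosome 7 from 55019021 to 55211628 (GRCh38, GENCODE 29). Its level was 345, 337 and 316 CPM in the Vector libraries, 385, 341 and 340 CPM in WT, and 365, 357 and 369 CPM in NLS Mut. WT held both the highest library and libraries below every NLS Mut library, so these groups overlapped. EGFR differed by -0.03 between WT and NLS Mut (SE 0.06, edgeR adjusted p = 0.89). The 95% interval ran from 9.79% lower to 6.08% higher in WT. Against Vector, EGFR was 6.89% higher in WT (log2 0.10, SE 0.06, adjusted p = 0.54) and 9.27% higher in NLS Mut (log2 0.13, SE 0.06, adjusted p = 0.36). All 3 NLS Mut libraries lay above all 3 Vector libraries, whereas WT and Vector overlapped. The interval against Vector ran from 1.41% lower to 15.9% higher for WT and from 0.77% to 18.5% higher for NLS Mut. WT replicate 1 held the highest EGFR level, and without it WT against Vector was 0.04 (adjusted p = 0.92). Without Vector replicate 3 the values against Vector were 0.06 for WT and 0.08 for NLS Mut. These comparisons share the Vector libraries. EGFR shares 186 exonic bases with the antisense gene EGFR-AS1, which was at 0.398 to 2.10 CPM, and the counts used here do not separate the strands. With the sum of both strand columns, which held 5.48% more EGFR reads, the difference between WT and NLS Mut was -0.02 (adjusted p = 0.93).

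ERBB2 and ERBB3, the partner receptors, had the smallest p-values of the family between WT and NLS Mut, and neither passed the adjusted threshold. ERBB2, on chromosome 17 from 39687914 to 39730426, was at 166, 175 and 170 CPM in Vector, 176, 175 and 176 CPM in WT and 149, 166 and 155 CPM in NLS Mut. The WT libraries were nearly alike and all lay above the NLS Mut libraries. ERBB2 was higher in WT by 0.16 (SE 0.06, 95% interval 0.04 to 0.28, edgeR adjusted p = 0.26). ERBB3, on chromosome 12 from 56076799 to 56103505, was at 80.0, 73.4 and 76.8 CPM in Vector, 82.7, 77.6 and 79.7 CPM in WT and 75.6, 65.3 and 63.7 CPM in NLS Mut. Again all WT libraries lay above all NLS Mut libraries, although NLS Mut replicate 1 came close to the lowest WT library. The difference was 0.23 (SE 0.08, 95% interval 0.08 to 0.39, edgeR adjusted p = 0.18). Over the 19 alternative analyses the adjusted p of ERBB3 ranged from 0.063 to 0.55, and that of ERBB2 from 0.085 to 0.58. Separation of all 3 libraries from all 3 others occurred for 2 of 9 members here and for 17.7% of all tested genes.

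Between NLS Mut and Vector, ERBB3 differed by -0.17 (SE 0.08, adjusted p = 0.36) and ERBB2 by -0.12 (SE 0.06, adjusted p = 0.43), with overlapping groups. Between WT and Vector the values were 0.06 for ERBB3 (adjusted p = 0.83) and 0.04 for ERBB2 (adjusted p = 0.86). ERBB2 shares 571 exonic bases with MIEN1 and 194 with PGAP3, both on the opposite strand. The sum of both strand columns held 9.15% more ERBB2 reads and gave 0.16 for WT against NLS Mut. The 10 epithelial markers summed to 5326 to 5447 CPM in the WT libraries and 4884 to 5100 CPM in NLS Mut, with 5035 to 5745 CPM in Vector. Of these 10 markers, CDH1 (0.27, adjusted p = 0.036) and KRT19 (0.23, adjusted p = 0.044) were called higher in WT than in NLS Mut. In that comparison 0.504% of all tested genes were called. Both marker calls were lost without NLS Mut replicate 1, 2 or 3 and without WT replicate 1 or 3, with adjusted p up to 0.20 and 0.23. Between NLS Mut and Vector all 10 epithelial markers were below 0, with a median of -0.15, and CDH1 (-0.25, adjusted p = 0.044) and MUC1 (-0.36, adjusted p = 0.017) were called lower. Of all tested genes, 49.7% were above 0 in this comparison, with a median of 0.00, and 0.793% were called. The CDH1 call was lost without NLS Mut replicate 1, 2 or 3, Vector replicate 2 or 3, or WT replicate 3, with adjusted p up to 0.19. That of MUC1 was lost without NLS Mut replicate 1 or 3 and with GC and length offsets (-0.15, adjusted p = 0.54). The part of the epithelial markers in the ERBB2 and ERBB3 values was not tested.

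EGFR, ERBB2 and ERBB3 kept this order of level per length in every library. As a share of the summed RPKM of the 4 receptors, EGFR made up 50.3% to 52.5% in Vector, 51.2% to 54.0% in WT and 55.0% to 57.2% in NLS Mut. The NLS Mut range lay above the other two. The share of ERBB3 was 15.6% to 16.9% in Vector, 16.1% to 16.6% in WT and 13.7% to 16.1% in NLS Mut. The summed level of the receptors was 50.2 to 52.5 RPKM in Vector, 52.7 to 57.0 RPKM in WT and 51.6 to 52.0 RPKM in NLS Mut. These shares were computed after the levels were seen and were given no test.

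**Figure D3:**
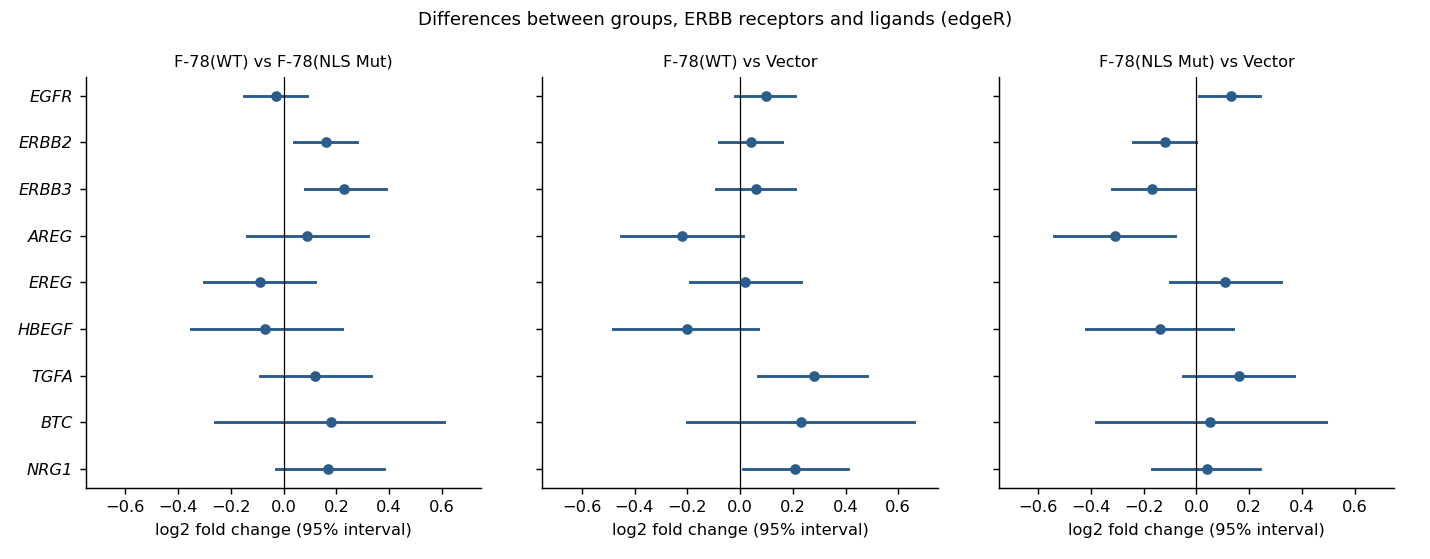
Log2 fold change (point) and 95% interval (line) of the 9 tested members in the 3 comparisons, from edgeR; values above 0 are higher in the first group named. No member was called; in the left panel (WT over NLS Mut) the ERBB2 and ERBB3 intervals lie above 0 and EGFR is centred at -0.03, in the middle panel (WT over Vector) those of TGFA and NRG1 lie above 0, and in the right panel (NLS Mut over Vector) those of AREG and ERBB3 lie below 0 and that of EGFR above.

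AREG encodes amphiregulin, a ligand of EGFR alone among these receptors, and lies on chromosome 4 from 74445134 to 74455009. Its level was 30.9, 23.3 and 26.9 CPM in Vector, 24.6, 23.1 and 21.9 CPM in WT and 22.8, 20.6 and 22.1 CPM in NLS Mut. All NLS Mut libraries lay below all Vector libraries, by a margin of less than 1 CPM at the nearest pair, and WT overlapped with both. AREG differed by -0.31 between NLS Mut and Vector (SE 0.11, 95% interval -0.54 to -0.08, edgeR adjusted p = 0.23). The highest value was that of Vector replicate 1, which differed from the other Vector libraries, and without it the difference was -0.21 (adjusted p = 0.37). WT and Vector differed by -0.22 (SE 0.11, adjusted p = 0.46), or -0.12 without Vector replicate 1 (adjusted p = 0.70). Between WT and NLS Mut the value was 0.09 (SE 0.11, adjusted p = 0.84).

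EREG, which encodes epiregulin, a ligand of EGFR and ERBB4, neighbours AREG on chromosome 4 from 74365143 to 74388751. Its level was 49.3, 35.7 and 38.5 CPM in Vector, 38.2, 42.4 and 44.2 CPM in WT and 41.7, 43.8 and 47.4 CPM in NLS Mut. Vector replicate 1 held the highest value of all 9 libraries, and the groups overlapped in each comparison. The log2 fold changes were -0.09 for WT against NLS Mut (SE 0.10), 0.02 for WT against Vector (SE 0.10) and 0.11 for NLS Mut against Vector (SE 0.10), with edgeR adjusted p-values of 0.81, 0.97 and 0.73. Without Vector replicate 1, the values against Vector were 0.16 for WT (adjusted p = 0.39) and 0.25 for NLS Mut (adjusted p = 0.14).

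TGFA, the gene of transforming growth factor alpha, a ligand of EGFR, is read from the minus strand of chromosome 2, between 70447280 and 70554193. Its level was 23.4, 24.5 and 22.3 CPM in Vector, 29.1, 26.2 and 29.9 CPM in WT and 26.4, 25.6 and 26.5 CPM in NLS Mut. Every library with a GRP78 plasmid lay above every Vector library. TGFA was 21.2% higher in WT than in Vector (log2 0.28, SE 0.10, 95% interval 0.07 to 0.48, edgeR adjusted p = 0.25). The value for NLS Mut against Vector was 0.16 (SE 0.10, adjusted p = 0.56), and WT and NLS Mut differed by 0.12 (SE 0.10, adjusted p = 0.72). TGFA was the only member that separated between WT and Vector, where 13.1% of all tested genes did. Between NLS Mut and Vector 3 members separated (EGFR, AREG and TGFA), against 18.1% of all tested genes.

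NRG1 encodes neuregulin 1, the ligand of ERBB3 and ERBB4. It was at 36.2, 29.6 and 32.4 CPM in Vector, 41.0, 34.2 and 38.3 CPM in WT and 35.9, 33.2 and 31.6 CPM in NLS Mut. WT had the highest mean, and its lowest library lay within the range of both other groups. NRG1 differed by 0.21 between WT and Vector (SE 0.10, 95% interval 0.01 to 0.41, edgeR adjusted p = 0.41), by 0.17 between WT and NLS Mut (SE 0.10, adjusted p = 0.54) and by 0.04 between NLS Mut and Vector (SE 0.10, adjusted p = 0.93).

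HBEGF and BTC, the genes of heparin-binding EGF-like growth factor and betacellulin, are ligands of both EGFR and ERBB4. HBEGF, on chromosome 5 from 140332843 to 140346631, was at 17.0, 19.1 and 14.5 CPM in Vector, 14.6, 16.7 and 12.5 CPM in WT and 14.1, 15.0 and 16.9 CPM in NLS Mut. BTC, on chromosome 4 from 74744759 to 74794686, was at 5.82, 4.27 and 5.96 CPM in Vector, 6.65, 4.97 and 7.23 CPM in WT and 5.14, 6.86 and 4.48 CPM in NLS Mut. Libraries within a group differed more than the group means for both genes, and the groups overlapped in every comparison. Between WT and NLS Mut, HBEGF differed by -0.07 (SE 0.14, 95% interval -0.35 to 0.22, adjusted p = 0.91). BTC differed by 0.18 (SE 0.21, 95% interval -0.26 to 0.61, adjusted p = 0.82). When 1 library was left out, this BTC value ranged from 0.06 (without NLS Mut replicate 3) to 0.38 (without NLS Mut replicate 2). Against Vector, HBEGF differed by -0.20 in WT and -0.14 in NLS Mut, and BTC by 0.23 and 0.05, with adjusted p-values of 0.60, 0.75, 0.74 and 0.96. The WT values against Vector ranged from -0.31 to -0.10 for HBEGF and from 0.09 to 0.38 for BTC when 1 library was left out.

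The median over the 9 tested members was 0.12 for WT against NLS Mut, 0.06 for WT against Vector and 0.04 for NLS Mut against Vector. Over all tested genes these medians were -0.01, 0.00 and 0.00. Between WT and NLS Mut 6 of 9 members were above 0, against 48.9% of all genes.

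The genes around the receptors were examined as 6 lists. Together they held 90 different genes, of which 84 were tested. Between WT and NLS Mut, edgeR called 0 of the 84, against 0.504% of all tested genes. Of 5 further EGF-family ligands (EGF, EPGN, NRG2, NRG3 and NRG4), only EGF had enough reads to be tested, at 0.362 to 2.17 CPM, and it differed by -0.05 (SE 0.52, adjusted p = 0.99). NRG3 had no read in any library. All 10 sheddases and iRhoms, the proteases that release the ligands and their cofactors, were tested. Their median was 0.03, and the largest difference was that of ADAM12 (0.62, SE 0.27, adjusted p = 0.36), at 3.57, 4.20 and 4.39 CPM in WT and 1.84, 2.71 and 3.35 CPM in NLS Mut. ADAM17, the main sheddase of AREG and TGFA, was at 81.0 to 93.8 CPM and differed by 0.02 (SE 0.07, adjusted p = 0.94).

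Of 23 feedback inhibitors of ERBB and RAS-MAPK signalling, 22 were tested, with a median of 0.03 between WT and NLS Mut. The largest difference was that of SPRY1, a Sprouty protein (0.41, SE 0.22, adjusted p = 0.50). ERRFI1, which encodes an inhibitor of the EGFR kinase, was at 327 to 403 CPM and differed by 0.12 (SE 0.06, adjusted p = 0.46). Of 29 adaptors and kinases, 28 were tested, with a median of -0.01, and STAT5A differed most (-0.47, SE 0.16, adjusted p = 0.19). STAT5A was at 6.78, 6.62 and 6.46 CPM in WT and 10.1, 9.30 and 8.23 CPM in NLS Mut, with no overlap. The 17 endocytic adaptors, which sort EGFR after uptake, had a median of 0.04, and EPN2 differed most (0.14, SE 0.09, adjusted p = 0.58).

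The 10 transcripts that report RAS-MAPK activity had a median of -0.03 between WT and NLS Mut, with 4 above 0 and 6 below. CCND1, the gene of cyclin D1, differed most. It was at 243, 248 and 257 CPM in Vector, 238, 231 and 220 CPM in WT and 268, 274 and 263 CPM in NLS Mut, so all WT libraries lay below all others. WT and NLS Mut differed by -0.22 (SE 0.06, edgeR adjusted p = 0.061). Over 19 alternatives the adjusted p ranged from 0.0026 to 0.32, and it passed in 6 of them, among them DESeq2 (0.0026) and the fit without Vector replicate 1 (0.0070). DUSP6, a phosphatase of ERK that ERK signalling induces, differed by -0.22 (SE 0.15, adjusted p = 0.63).

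Of the 84 tested genes of all 6 lists, only DUSP5 and SHC1 were called in any comparison, both lower in NLS Mut than in Vector, where they made up 2.38% of the list genes against 0.793% of all tested genes. DUSP5, a nuclear phosphatase of ERK, was at 63.9, 66.4 and 62.7 CPM in Vector and 48.4, 52.8 and 53.7 CPM in NLS Mut, a difference of -0.32 (SE 0.08, edgeR adjusted p = 0.042). SHC1, an adaptor of activated ERBB receptors, was at 204, 209 and 217 CPM in Vector and 177, 178 and 180 CPM in NLS Mut, a difference of -0.24 (SE 0.06, edgeR adjusted p = 0.036). WT lay between the other groups for both genes, at 54.7 to 58.4 CPM and 186 to 192 CPM. Both calls were lost with offsets for GC content and length, which moved DUSP5 to -0.22 (adjusted p = 0.11) and SHC1 to -0.15 (adjusted p = 0.10). Both were also lost without NLS Mut replicate 1, 2 or 3 and without Vector replicate 2 or 3, with adjusted p up to 0.24 for DUSP5 and 0.20 for SHC1. Without WT replicate 3, DUSP5 was lost (adjusted p = 0.053) and SHC1 lay at the threshold (adjusted p = 0.050).

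**Figure D4:**
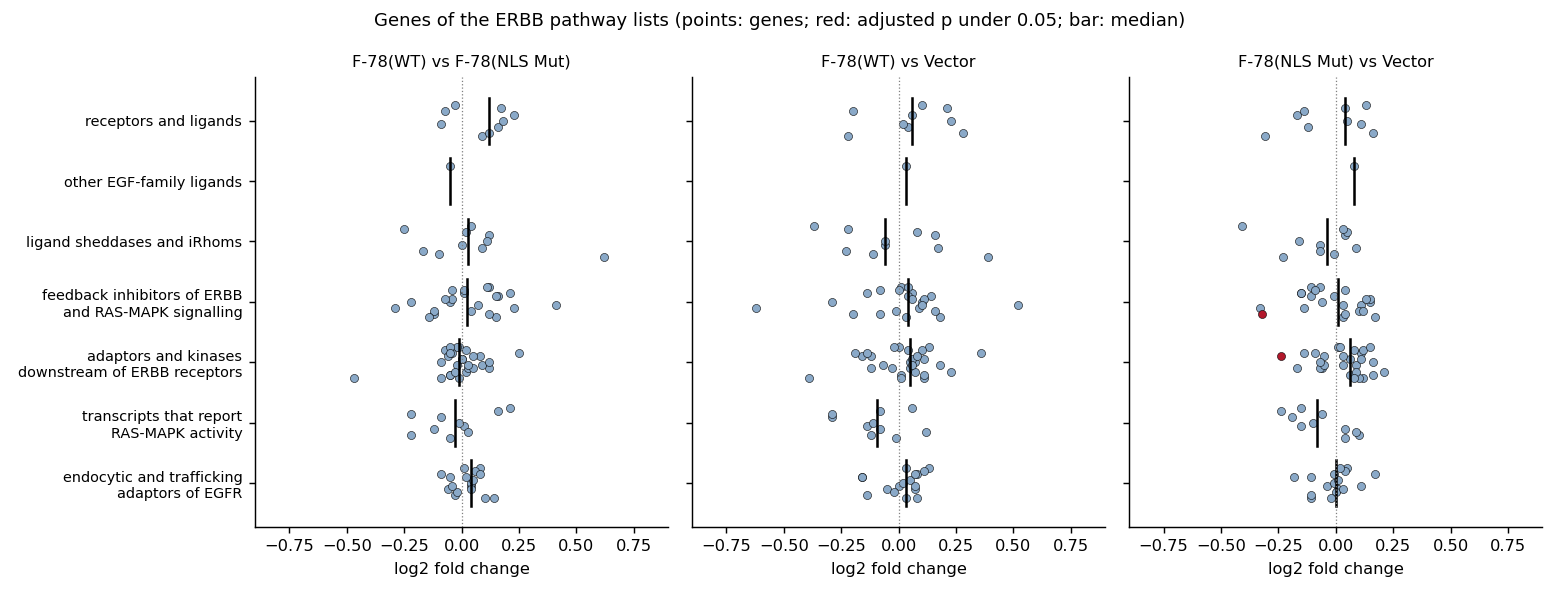
Log2 fold change of each tested gene of the receptors and ligands and of the 6 pathway lists in the 3 comparisons, 1 point per gene, with a bar at the list median. Genes with an edgeR adjusted p under 0.05 are red: only DUSP5 and SHC1, both in the right panel (NLS Mut over Vector), at -0.32 and -0.24.

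The genes most like EGFR and AREG were found by the Pearson correlation of log2 CPM over the 9 libraries, among 10070 genes whose mean reached 10 CPM. These points share library composition and depth, and the highest of 10070 correlations over 9 points can be high among unrelated genes. The correlations are therefore only a description. Close to EGFR were RTF1 (r = 0.97) and GPSM2 (r = 0.97). Closest to AREG were IRF1-AS1 (r = 0.94), CCNYL1 (r = 0.91) and CCT6P1 (r = 0.90). CCT6P1 is a pseudogene of CCT6A and IRF1-AS1 an antisense RNA, so their reads may belong in part to other genes. No member of the family was among them.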

How the data were processed

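Counts of reads per gene in 9 libraries, without normalization, were deposited by the authors. The submitters' processing notes name STAR 2.7.9a, GRCh38.p14 and DESeq2 1.36.0, without their roles; the annotation is not given in the sources used here. The column counted without regard to strand was used (50.6% to 51.9% of reads were forward), and 4 summary lines (27.6% to 30.7% of reads) were left out. Symbols, coordinates, GC content and exonic length came from GENCODE 29 (58342 of 61544 genes matched) and promoters from RefSeq.

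All 9 libraries were fitted together in edgeR 4.0.16 (R 4.3.3): TMM factors of 0.989 to 1.02, filterByExpr, 1 coefficient per group, and Benjamini-Hochberg adjustment over 18653 genes at 0.05. The SE is the absolute log2 fold change over the square root of F. The median coefficient of variation was 11.2%. The procedure was also run on counts simulated from its own fitted spread, without the GC trends of these libraries. That run cannot show how it performs where such trends are present. Replicate libraries differed by more than sampling noise (chi-square per degree of freedom 3.50 to 11.3).

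The members and lists were chosen with earlier results of these data known. Named genes were all 10 members, HSPA5, every called gene of the pathway lists, the largest difference of each list between WT and NLS Mut, and the 3 genes most correlated with EGFR and with AREG. One gene of the last kind is not reported here. Other genes were named for their roles or for shared exonic bases, after their values were seen.

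Each result was recomputed with DESeq2 1.42.0, with RLE or unscaled library sizes, with a looser and a stricter filter, with both strand columns added, with the third group left out of the fit, with a replicate block, with GC and length offsets (loess, span 0.3), with the last pair joined, and without each library in turn.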

Additional observations from a re-analysis of the deposited data

How the results depend on the processing

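No member was called in any of 510 values recomputed under 19 alternatives, of which 496 kept the sign of the difference and 14 did not; the lowest adjusted p was 0.063, for ERBB3 between WT and NLS Mut with a replicate block and GC and length offsets. EGFR between WT and NLS Mut ranged from -0.09 to 0.01 when 1 library was left out, and reached 0.01 without WT replicate 2 or 3. EREG between WT and Vector was 0.02; it was -0.04 with GC and length offsets, -0.04 with a replicate block added to them, -0.01 with library size alone, and -0.07 to 0.16 when 1 library was left out. Over the same omissions HBEGF between WT and NLS Mut ranged from -0.17 to 0.04, BTC and NRG1 between NLS Mut and Vector from -0.16 to 0.17 and from -0.03 to 0.11, and EGF between WT and NLS Mut from -0.34 to 0.21. The causes were not tested.

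Deviations from the group means correlated at -0.0237 to 0.0588 over the 9 pairs of libraries with the same replicate number. They correlated at -0.0515 to 0.0229 over the 18 pairs with different numbers. Low correlations over all tested genes cannot decide whether the numbers pair the samples. With a replicate block, calls between WT and NLS Mut went from 56 higher and 38 lower to 110 and 102. Between WT and Vector they went from 40 and 64 to 78 and 154. Between NLS Mut and Vector they went from 55 and 93 to 91 and 139. With the block EGFR differed by -0.03 between WT and NLS Mut (edgeR adjusted p = 0.87), and no member was called. Over all genes, calls between WT and NLS Mut numbered 94 and ranged from 27 (without NLS Mut replicate 2) to 489 (replicate block with GC and length offsets), those between WT and Vector numbered 104 and ranged from 19 (without WT replicate 1) to 1256 (without Vector replicate 1), and those between NLS Mut and Vector numbered 148 and ranged from 33 (without NLS Mut replicate 2) to 1002 (without Vector replicate 1). With GC and length offsets the last comparison turned from 55 higher and 93 lower to 212 higher and 74 lower. BTC and HBEGF had the largest SEs of the members, 0.21 and 0.14 on the log2 scale, and the fewest reads; how much of these SEs comes from counting error was not tested.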
